A study of Mus musculus with 64 samples.

Results

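This account is of 8 long noncoding RNAs, out of 3787 transcripts in a deposited table of long noncoding RNA counts from mouse hearts, namely Gm43672, Gm9905, RP23-235I2.1, F630028O10Rik, Prr33, Banf2os, Gm43336 and Gm44616. They were selected on measured values. In earlier results from these files they were among the transcripts with the smallest p for a difference between transgenic (TG) and nontransgenic (nTG) hearts, up to 2 higher and 2 lower in each of 4 strata of training and sex. The hearts came from C57BL/6J mice, and TG animals carry cTnT-delta160E, a variant of cardiac troponin T that serves as a model of hypertrophic cardiomyopathy. Trained animals did high-intensity interval running on 3 days per week for 6 weeks, in sessions of 31 minutes alternating 4 fast intervals (85% of the mean speed that their group reached in a graded test) with 4 slow ones (50%), and sedentary animals did not exercise. Bulk total RNA depleted of ribosomal RNA was sequenced from 64 hearts in 8 groups. Males comprised 7 nTG sedentary, 9 TG sedentary, 8 nTG trained and 8 TG trained hearts. Females comprised 8 nTG sedentary, 8 TG sedentary, 10 nTG trained and 6 TG trained hearts. The age of the mice and the promoter that drives the transgene are not given in the sources used here. Males are library numbers 1 to 32 and females 33 to 64, so that sex and library number cannot be told apart.

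Long noncoding RNAs (lncRNAs) are transcripts that lack a long open reading frame. Many start beside, within or opposite a protein-coding gene, and some contain a microRNA or small nucleolar RNA that is cut out of them. In heart muscle, lncRNAs are known mainly from studies of chromatin at the myosin heavy chain locus, of cardiac cell fate and of the response to load.

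Of the 8 transcripts, 7 have a position in GENCODE M21 on build GRCm38, and RP23-235I2.1, a clone-based name, was matched to none. Gm43672 (3:22074412-22076142, minus strand) is an intergenic transcript 510 bases from the divergently transcribed Tbl1xr1, which encodes a subunit of the NCoR and SMRT corepressor complexes. Gm9905 (7:121033252-121035096, minus strand) lies opposite the start of Mettl9, a protein histidine methyltransferase gene, and shares 531 of its 1845 exonic bases (28.8%) with it. Gm44616 (7:55927177-55928908, minus strand) lies inside Cyfip1, a gene of the actin-regulating WAVE complex, on the other strand, and shares 173 of 1732 bases (10.0%) with its exons. Banf2os (2:144059138-144068806, minus strand) is antisense to Banf2 without shared exonic bases. Prr33 (7:142491074-142506771, minus strand) is named for a proline-rich protein but is classed as a lncRNA by GENCODE and RefSeq. It runs opposite parts of Lsp1, which encodes an actin-binding protein of leukocytes, and Tnnt3, the fast skeletal troponin T gene, again without shared exonic bases. Gm43336 (5:113900395-113904898, minus strand) lies within Coro1c, a coronin gene, on the same strand and outside its exons. Its 4504 exonic bases fill its whole span, so that its reads and those of unspliced Coro1c RNA cannot be told apart, even by strand. GENCODE gives Gm9905, Gm43336 and Gm44616 the biotype TEC, a class kept apart from its lincRNA and antisense classes. F630028O10Rik (X:96239926-96243636, plus strand) carries the synonym mir-223 in RefSeq and contains Mir223 (X:96242817-96242926), a microRNA gene typical of myeloid cells, and its end is 3567 bases from Vsig4, which encodes a complement receptor of tissue macrophages.

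The sequences below show what is unusual about 3 of these loci. F630028O10Rik is the primary transcript around miR-223, whose mature arms are given from RefSeq (GRCm38.p6) with the seed, bases 2 to 8, in capitals. Mature microRNAs were not measured here.
mmu-miR-223-5p: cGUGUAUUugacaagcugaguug
mmu-miR-223-3p: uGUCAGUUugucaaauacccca
Gm9905 holds a stretch of 165 bases (7:121034811-121034975, minus strand, GRCm38) that is the reverse complement of Mettl9 coding sequence, and Gm44616 one of 148 bases (7:55928187-55928334, minus strand) opposite Cyfip1 coding sequence. Whether the authors' counting used strand is not stated, so that reads of these stretches and of the coding genes cannot be told apart.
Gm9905: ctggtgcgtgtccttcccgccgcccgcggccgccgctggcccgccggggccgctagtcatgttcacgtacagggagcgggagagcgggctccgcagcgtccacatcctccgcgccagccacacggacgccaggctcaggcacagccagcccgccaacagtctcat
Gm44616: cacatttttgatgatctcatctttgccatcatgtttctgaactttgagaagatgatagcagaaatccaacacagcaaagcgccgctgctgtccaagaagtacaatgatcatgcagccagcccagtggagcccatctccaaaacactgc

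RefSeq promoters (250 bases before to 50 after the start, GRCm38.p6) were searched on both strands for 3 motifs in F630028O10Rik and Prr33, shown because they were selected in opposite directions in trained males. The ETS-type motif GAGGAA, which the myeloid factor PU.1 binds, is marked in capitals on whichever strand it lies. It occurs 2 times at F630028O10Rik and 1 time at Prr33, and 28.3% of all 32851 promoters hold it. The MEF2-type motif CTANNNNTAG, found in 3.69% of promoters, is in neither window. The E-box CANNTG, found in 72.3% of promoters, occurs 1 time at F630028O10Rik and 6 times at Prr33. These matches describe letters, not occupied sites.
F630028O10Rik (X:96239676-96239975, plus strand): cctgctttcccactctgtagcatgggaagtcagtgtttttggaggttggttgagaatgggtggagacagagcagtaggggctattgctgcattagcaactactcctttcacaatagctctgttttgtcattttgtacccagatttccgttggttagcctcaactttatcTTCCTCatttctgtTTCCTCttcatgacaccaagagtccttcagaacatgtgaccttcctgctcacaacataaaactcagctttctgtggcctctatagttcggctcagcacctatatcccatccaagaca
Prr33 (7:142506722-142507021, minus strand): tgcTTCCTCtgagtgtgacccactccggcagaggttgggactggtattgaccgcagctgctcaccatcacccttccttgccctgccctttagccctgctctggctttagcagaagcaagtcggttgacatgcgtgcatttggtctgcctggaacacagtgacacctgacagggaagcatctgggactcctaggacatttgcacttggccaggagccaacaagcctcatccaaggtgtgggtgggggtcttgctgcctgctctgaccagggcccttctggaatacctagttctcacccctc

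Libraries held 64584 to 120282 lncRNA counts (median 90564) outside Gm42418, a transcript that overlaps 18S ribosomal RNA and took 50.9% to 76.6% of the lncRNA table. Levels below are CPM relative to the lncRNA counts without Gm42418, adjusted by TMM normalization factors (the lncRNA scale). Fold changes are also given with each library scaled by its total over the gene table and its TMM factor (the gene scale). Levels and fold changes said to be by totals carry these factors unless the totals are called plain. The columns of the gene table, taken by name, contradicted the labelled sex or genotype in 45 of 64 libraries, so each lncRNA column was joined to the gene column that correlated best with it. Joined columns contradicted the labels in 0 of 64 libraries, with Tnnt2, the gene of the transgene product, at 2665 to 3428 CPM in nTG and 6903 to 12001 CPM in TG hearts. The lncRNA columns themselves were used by name. All 10 cardiomyocyte markers were present, summing to 104337 to 139114 CPM. Summed levels of 6 fibroblast markers had higher medians in TG than in nTG hearts in all 4 strata (791 against 1228 CPM in sedentary and 748 against 894 CPM in trained males, 920 against 1141 CPM in sedentary and 774 against 1024 CPM in trained females). Summed blood markers (5 of 5 present) had medians in nTG and TG hearts of 589 and 547 CPM in sedentary and 934 and 384 CPM in trained males, and of 610 and 386 CPM in sedentary and 688 and 412 CPM in trained females. TG sedentary male replicate 5 stood apart at 4603 CPM, the other hearts of its group having at most 1150 CPM. Without it the held-out differences in sedentary males were -0.38 for Prr33 (adjusted p = 0.137, edgeR, not called) and -0.90 for Banf2os (0.0426). The part of the blood and fibroblast markers in the results below was not tested.

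Exon lengths were available for 7 members, all but RP23-235I2.1. Among these 7, the median per kilobase of exon over all libraries was highest for Gm43672 at 3676 CPM, followed by Prr33 at 1527, Gm9905 at 1088, Banf2os at 374, F630028O10Rik at 195, Gm43336 at 162 and Gm44616 at 87.7 CPM per kilobase. Gm43672, Prr33, Gm9905 and Gm44616 held ranks 1, 2, 3 and 7 by median in each of the 8 groups, while Banf2os, F630028O10Rik and Gm43336 exchanged places between groups, and the order was not tested. Gm43672 had 339 to 1047 counts per library and ranked 19th in the table by mean count, while Banf2os had 6 to 80 and Gm44616 had 4 to 27 counts.

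**Figure D1:**
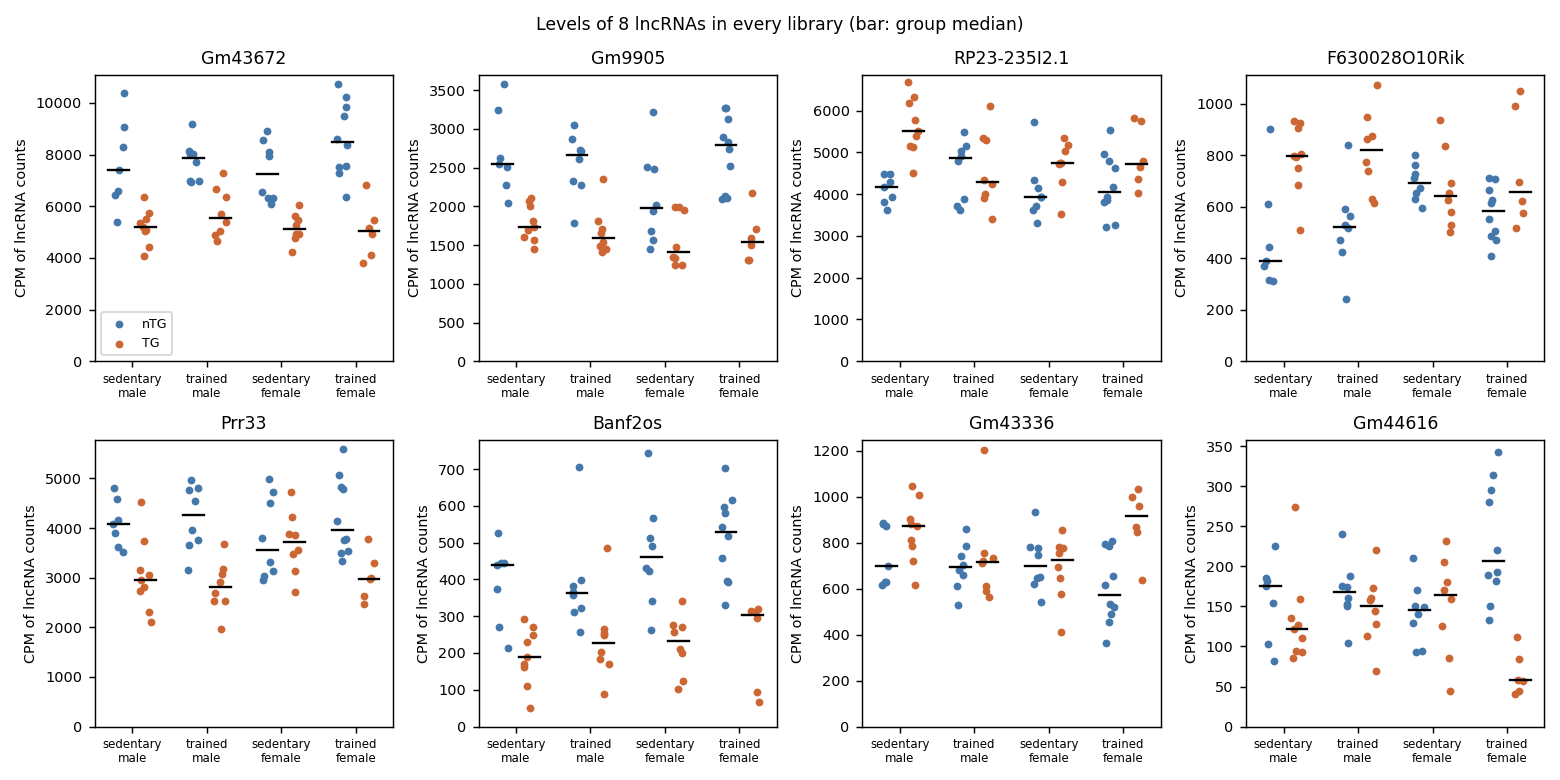
CPM on the lncRNA scale (y axis, linear, from 0) of each lncRNA in every heart, by training and sex (x axis). Points are hearts, blue nTG and orange TG, and black bars are group medians. The 2 genotypes separate without overlap for RP23-235I2.1 in sedentary males, Gm43672 in sedentary females, and Banf2os and Gm44616 in trained females. Of these, only Banf2os was not selected in the stratum named.

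In the strata that selected them, the fold changes and any separation of the genotypes restate the selection and are given without a test. Genotype was the selecting contrast in 13 combinations of member and stratum, and 19 further combinations came from mice that did not contribute to a member's selection. In those 19, the difference was called in 6 on the lncRNA scale and in 5 on the gene scale, 5 of them on both, by edgeR's quasi-likelihood test with Benjamini-Hochberg adjustment over all transcripts at 0.05. The share of all tested transcripts called was 1.73% for sedentary and 0.547% for trained males, and 0.182% for sedentary and 3.1% for trained females. On the gene scale these shares were 1.44%, 0.542%, 0.271% and 2.89%. In 16 of the 19 the sign was that of the selecting stratum, on both scales. No share over all tested transcripts is given beside this count. It includes differences near 0, such as 0.003 for RP23-235I2.1 in trained males (adjusted p = 0.996, edgeR) and -0.04 for Prr33 in sedentary females (0.977). The median size of the difference among members not selected in a stratum was 0.34 for sedentary and 0.21 for trained males, and 0.08 for sedentary and 0.62 for trained females (log2, lncRNA scale), beside 0.20, 0.20, 0.17 and 0.22 over all tested transcripts. The 6 calls belonged to Gm43672, Gm9905, Prr33 and Banf2os, all lower in TG hearts. On these scales no held-out stratum gave a call for Gm44616 or for the 3 members selected as higher in TG hearts. F630028O10Rik in trained females was called under another scaling and in the gene table, as given with its values.

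**Figure D2:**
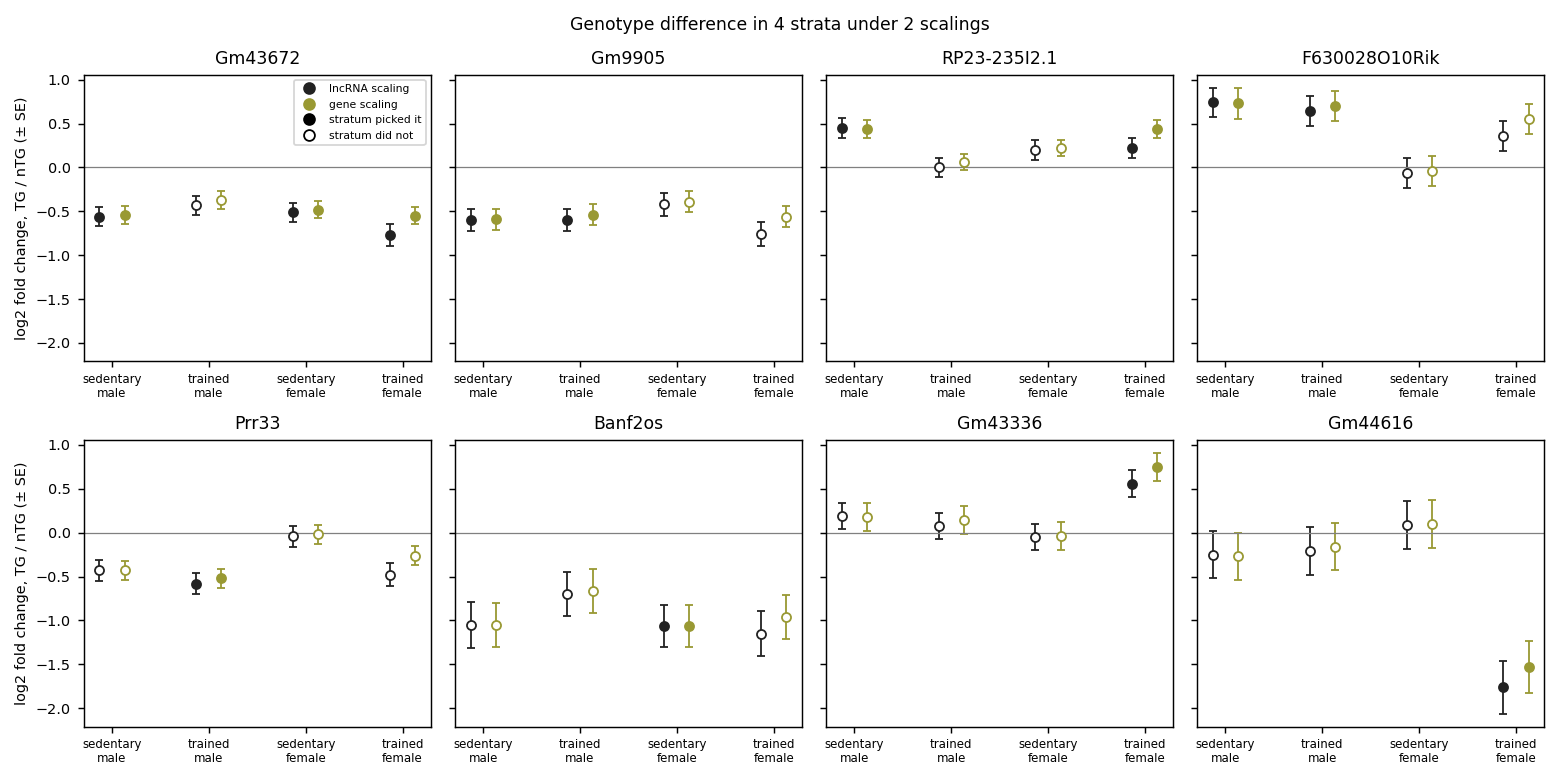
Log2 fold change of TG over nTG (y axis, ± SE) in the 4 strata (x axis), on the lncRNA scale (black) and the gene scale (olive). Filled points mark strata that selected the lncRNA and open points those that did not. Banf2os, Gm9905 and Gm43672 are below 0 in all 4 strata, whereas Gm44616 stands far below 0 in trained females alone, at -1.76 and -1.53 (-0.51 when counted in the gene table, not drawn here).

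Gm43672, the abundant transcript divergent from Tbl1xr1, was lower in TG hearts of every stratum. In sedentary males its lowest, median and highest levels were 5375, 7405 and 10392 CPM in nTG and 4092, 5191 and 6353 CPM in TG hearts. In sedentary females they were 6080, 7236 and 8899 CPM in nTG and 4244, 5103 and 6054 CPM in TG hearts. The groups did not overlap in sedentary females, where Gm43672 alone of the tested transcripts (0.0912%) had groups apart. In trained females nTG hearts had 6345, 8487 and 10750 CPM and TG hearts 3800, 5047 and 6841 CPM, and 5 of 6 TG hearts lay below every nTG heart. These 3 strata selected it, with log2 fold changes of -0.56 ± 0.11 (SE) in sedentary males, -0.51 ± 0.11 in females without and -0.77 ± 0.12 in females with training. Trained males did not select it. There it stood at 6923, 7855 and 9164 CPM in nTG and 4646, 5547 and 7272 CPM in TG hearts, with 7 of 8 TG hearts below every nTG heart. The difference there was -0.43 ± 0.11 (adjusted p = 0.0409, edgeR) and -0.37 ± 0.10 on the gene scale (adjusted p = 0.0473). On plain gene totals it was -0.31 and not called (adjusted p = 0.148, edgeR). The lncRNA-scale call was close to the threshold, and leaving out single libraries ended it in 10 of 16 cases. Adjusted p then ran from 0.0104 to 0.12 and the fold change from -0.48 to -0.39. The libraries were nTG replicates 1, 2, 3, 5 and 7 and TG replicates 3, 4, 6, 7 and 8.

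Gm9905, which overlaps the start of Mettl9 on the opposite strand, was selected in both male strata. In sedentary males it stood at 2046, 2551 and 3584 CPM in nTG and 1444, 1733 and 2108 CPM in TG hearts (-0.60 ± 0.13). In trained males it stood at 1782, 2660 and 3051 CPM in nTG and 1410, 1596 and 2351 CPM in TG hearts (-0.60 ± 0.13). The groups overlapped in both, through 2 of 9 and 2 of 8 TG hearts. In trained females, which did not select it, levels were 2096, 2787 and 3271 CPM in nTG and 1302, 1543 and 2169 CPM in TG hearts, and 5 of 6 TG hearts were below every nTG heart. Gm9905 fell there by 0.76 ± 0.14 on the log2 scale (adjusted p = 8.94e-05, edgeR), and on the gene scale the value was -0.56 ± 0.12 (adjusted p = 0.00432). It had rank 3 by p among the lower transcripts of that stratum, just outside the selection. In sedentary females the values were 1444, 1975 and 3219 CPM in nTG and 1239, 1409 and 1995 CPM in TG hearts. That difference, -0.42 ± 0.13, had the sign of the other strata and missed the threshold (adjusted p = 0.369, edgeR).

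Banf2os, the transcript antisense to Banf2, had the largest fold changes that recurred over strata, on low counts. Sedentary females selected it, with 263, 461 and 745 CPM in nTG and 101, 234 and 341 CPM in TG hearts (-1.06 ± 0.24). In sedentary males, which did not, levels were 213, 440 and 527 CPM in nTG and 51.3, 189 and 292 CPM in TG hearts. The difference was -1.05 ± 0.26 (adjusted p = 0.014, edgeR; 0.0145 on the gene scale). In trained females levels were 330, 530 and 703 CPM in nTG and 67.0, 304 and 319 CPM in TG hearts, and all 6 TG hearts were below all 10 nTG hearts, where 0.273% of tested transcripts had groups apart. The difference was -1.15 ± 0.26 (adjusted p = 0.00244, edgeR) and -0.96 ± 0.25 on the gene scale (adjusted p = 0.0236). Both calls remained with each library left out in turn, at adjusted p up to 0.047 and 0.0368. In trained males it stood at 256, 362 and 705 CPM in nTG and 88.5, 226 and 485 CPM in TG hearts, a difference of -0.70 ± 0.25 that was not called (adjusted p = 0.239, edgeR).

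Prr33, opposite Lsp1 and Tnnt3, was selected in trained males, with 3162, 4258 and 4974 CPM in nTG and 1958, 2804 and 3678 CPM in TG hearts (-0.58 ± 0.12). In sedentary males levels were 3509, 4082 and 4798 CPM in nTG and 2113, 2962 and 4532 CPM in TG hearts, with 7 of 9 TG hearts below every nTG heart. The difference was -0.43 ± 0.12 (adjusted p = 0.0444, edgeR; 0.0215 on the gene scale), but -0.38 with plain lncRNA totals (adjusted p = 0.0588) and -0.11 ± 0.09 when counted in the gene table (adjusted p = 0.463), neither called. Leaving out single libraries ended this call in 11 of 16 cases (nTG replicates 1, 2, 4 and 7 and TG replicates 1 to 7), with adjusted p from 0.009 to 0.143. In trained females levels were 3331, 3961 and 5595 CPM in nTG and 2479, 2981 and 3772 CPM in TG hearts. That difference depended on the scale: -0.48 ± 0.13 by lncRNA totals (adjusted p = 0.0176, edgeR) and -0.26 ± 0.11 by gene totals (adjusted p = 0.165). It was not called with plain lncRNA totals (-0.36, adjusted p = 0.0804, edgeR) or in the gene table (-0.08 ± 0.10, adjusted p = 0.634). Without TG replicate 5 or TG replicate 6 the lncRNA-scale call there was lost as well (adjusted p = 0.0701 and 0.0822). In sedentary females the medians were 3552 CPM in nTG and 3711 CPM in TG hearts, and the difference was -0.04 ± 0.12 (adjusted p = 0.977).

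Gm44616, antisense within Cyfip1, was selected for trained females. Its levels there were 133, 207 and 343 CPM in nTG hearts (11 to 27 counts) and 41.2, 57.6 and 112 CPM in TG hearts (4 to 13 counts). All 6 TG hearts were below all 10 nTG hearts, where 0.273% of tested transcripts had groups apart. The log2 fold change was -1.76 ± 0.30 (-1.53 ± 0.30 on the gene scale). Counted in the gene table, with a median over all 64 libraries of 25.5 counts against 13.5 in the lncRNA table, the value was -0.51 ± 0.27 and the groups overlapped. In the strata that did not select it, medians were 175 CPM in nTG and 122 CPM in TG sedentary males, 168 and 151 CPM in trained males, and 145 and 164 CPM in sedentary females. The differences of -0.25 ± 0.27, -0.21 ± 0.27 and 0.09 ± 0.27 were not called (adjusted p = 0.818, 0.885 and 0.977, edgeR). The value in sedentary males was -0.46 without TG replicate 1, the highest heart of its group at 274 CPM, and was not called then either (adjusted p = 0.549). With single libraries left out it ran from -0.46 to -0.16. The values ran from -0.32 to -0.11 in trained males and from -0.03 to 0.22 in sedentary females, and were never called. The nTG trained females had the highest median of the 8 groups.

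F630028O10Rik, the transcript around miR-223, was selected as higher in TG hearts in both male strata. In sedentary males it stood at 311, 389 and 902 CPM in nTG and 509, 798 and 935 CPM in TG hearts (0.74 ± 0.17). The groups overlapped, with nTG hearts at 902 and 610 CPM above the lowest TG heart. In trained males it stood at 241, 523 and 839 CPM in nTG and 614, 819 and 1072 CPM in TG hearts (0.64 ± 0.17). On the lncRNA and gene scales neither female stratum gave a call. Sedentary females had 595, 693 and 800 CPM in nTG and 502, 640 and 937 CPM in TG hearts (-0.06 ± 0.17, adjusted p = 0.977, edgeR). Trained females had 410, 583 and 711 CPM in nTG and 519, 658 and 1051 CPM in TG hearts (0.36 ± 0.17, adjusted p = 0.318; 0.55 ± 0.17 and 0.0608 on the gene scale). In trained females the difference was called with plain gene totals, without TMM factors (0.62, adjusted p = 0.0215, edgeR), and when counted in the gene table (0.51 ± 0.16, adjusted p = 0.0249). The difference between males and females was not tested, because the male contrasts chose the transcript.

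Summed macrophage and monocyte markers had higher medians in TG than in nTG hearts in all 4 strata, with overlapping ranges, a difference that was not tested. All 11 listed markers were in the gene table, none was at 0 throughout a group, and in joined columns they summed to 221 to 301 CPM (median 269) in nTG and 284 to 503 CPM (median 417) in TG sedentary males. In trained males the sums were 214 to 287 CPM (median 268) and 284 to 504 CPM (median 324). In sedentary females they were 272 to 414 CPM (median 304) and 281 to 420 CPM (median 352), and in trained females 242 to 335 CPM (median 288) and 316 to 465 CPM (median 357). Within groups, where genotype, training and sex are constant, F630028O10Rik followed the marker sum with Pearson's r = 0.48 (permutation within groups, adjusted p = 9e-05 over 9 relations) and Spearman's rho = 0.52 (adjusted p = 0.00054) over 64 hearts. Without the 2 hearts farthest from the median, r was 0.45. With neutrophil markers, of which S100a8 and Ly6g were not in the table and the other 4 summed to 1.64 to 10.7 CPM, r was 0.26 (permutation, adjusted p = 0.151). Vsig4, the nearest protein-coding gene, was higher in TG hearts by 1.22 ± 0.25 in sedentary males (adjusted p = 0.000213, edgeR on the gene table), by 0.84 ± 0.24 in their trained counterparts (0.0114) and by 0.82 ± 0.24 in sedentary females (0.0336). In trained females its difference of 0.55 ± 0.24 was not called (0.112). The share of genes called in that table was 20.6% for sedentary and 14% for trained males, and 4.37% for sedentary and 14.8% for trained females. Within groups the relation of Vsig4 to F630028O10Rik was not called (r = 0.11, permutation, adjusted p = 0.547). In bulk tissue more cells of a type and more RNA per cell cannot be told apart, and the part of the macrophage markers in the genotype difference of F630028O10Rik was not tested.

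**Figure D3:**
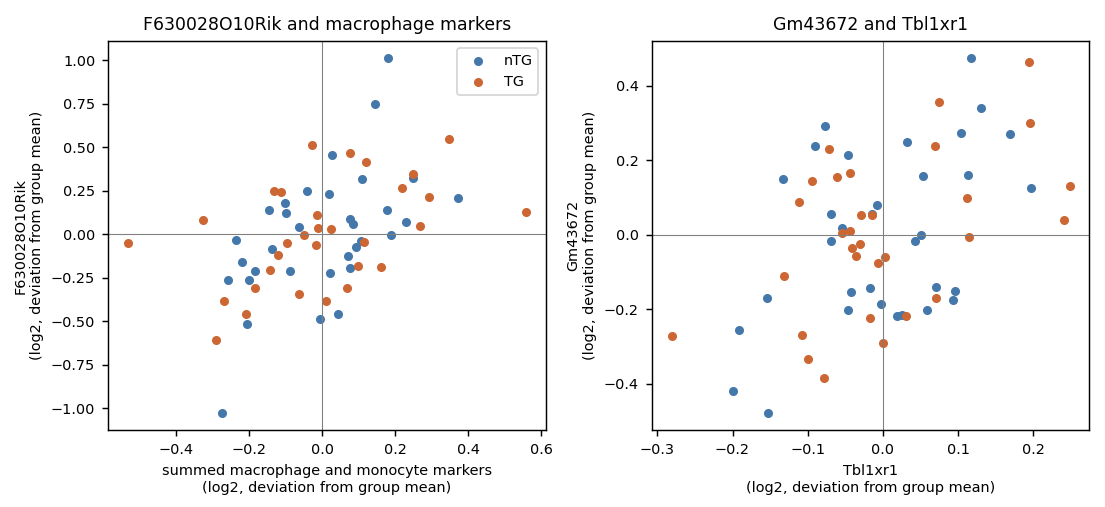
Deviations from the group mean, log2, in 64 hearts (blue nTG, orange TG). Left, F630028O10Rik against summed macrophage and monocyte markers (r = 0.48). Right, Gm43672 against its divergent neighbour Tbl1xr1 (r = 0.47). In both panels hearts high on the x axis tend to be high on the y axis, with wide scatter.

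RP23-235I2.1 was selected as higher in TG hearts of sedentary males and of trained females. In sedentary males its levels were 3618, 4176 and 4489 CPM in nTG and 4499, 5515 and 6687 CPM in TG hearts, and all 9 TG hearts were above all 7 nTG hearts, narrowly at the edge (0.45 ± 0.11). There 0.182% of tested transcripts had groups apart, and in trained males, where none of the members did, 0.0912% had. In trained females the description turned on the scale. By lncRNA totals levels were 3213, 4050 and 5539 CPM in nTG and 4036, 4728 and 5823 CPM in TG hearts, overlapping, at 0.22 ± 0.11. Per megacount of the gene table they were 5.81, 7.22 and 8.76 in nTG and 9.00, 9.41 and 11.6 in TG hearts, without overlap, at 0.44 ± 0.10. On that scale 0.729% of tested transcripts had groups apart in trained females, 5 with TG above and 3 with TG below. Those 3 were Gm43672, Gm9905 and Gm44616, while Banf2os overlapped. This restates the selection, because p on that scale in trained females selected RP23-235I2.1, Gm43672 and Gm44616, with Gm9905 at rank 3. The strata that did not select RP23-235I2.1 gave 0.00 ± 0.11 in trained males (adjusted p = 0.996, edgeR) and 0.20 ± 0.11 in sedentary females (adjusted p = 0.84).

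Gm43336, within Coro1c, was selected as higher in TG trained females, with 362, 574 and 806 CPM in nTG and 636, 915 and 1036 CPM in TG hearts (0.56 ± 0.15, and 0.75 ± 0.16 on the gene scale). Here 5 of 6 TG hearts were above every nTG heart. The nTG trained females had the lowest median of the 8 groups, the others lying between 694 and 873 CPM apart from the TG trained females. Held-out differences were 0.19 ± 0.15 in sedentary males, 0.08 ± 0.15 in trained males and -0.05 ± 0.15 in sedentary females, none called (adjusted p = 0.725, 0.952 and 0.977, edgeR).

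Between the 2 scales with TMM factors, the choice mattered most in trained females. Over all tested transcripts the median log2 fold change in that stratum was 0.01 by lncRNA totals and 0.22 by gene totals, while in the other strata the medians of the 2 scales lay between 0.01 and 0.06. TG trained females held a median of 2037.4 lncRNA counts per megacount of the gene table and nTG trained females 1772.6. Calls over the whole table split into 4 higher and 30 lower by lncRNA totals and into 25 higher and 7 lower by gene totals, with 10 transcripts called by both. Relative to the gene-scale median of 0.22, the members' differences in trained females keep their signs. Of the 4 members not selected in trained females, Prr33 was called on the lncRNA scale only, Gm9905 and Banf2os on both scales and F630028O10Rik on neither. Without TMM factors the scale mattered in males as well. In sedentary males plain lncRNA totals gave 15 calls and plain gene totals gave 8. These counts were 6 and 5 in trained males and 2 and 3 in sedentary females. In trained males Gm43672 was not called on plain gene totals (-0.31, adjusted p = 0.148, edgeR).

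Next after the selected transcripts by p, on the gene scale, came Gm17586 in sedentary males (0.91 ± 0.24) and trained females (1.05 ± 0.24), C530005A16Rik in sedentary males (-0.63 ± 0.15) and Gm42918 in trained males (-1.04 ± 0.23). The last transcripts inside the selection were F630028O10Rik (0.73 ± 0.18), RP23-235I2.1 (0.44 ± 0.10), Gm9905 (-0.59 ± 0.12 in sedentary and -0.54 ± 0.12 in trained males), Banf2os (-1.06 ± 0.24) and Gm44616 (-1.53 ± 0.30). Gm42418 would also have been selected, in sedentary females at 0.39 ± 0.09, and was left out of the members.

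Training and sex were compared with both genotypes weighted equally, contrasts that took no part in the selection. None of the 32 tests of members was called on either scale. Of all tested transcripts, 0.0% were called for training in males and 0.0% in females, on both scales, where 75 and 78 transcripts had an unadjusted p under 0.05 on the lncRNA scale and DESeq2 called 0 in each. For sex, 1.28% were called in sedentary and 0.273% in trained mice (1.17% and 0.271% on the gene scale). The abundant members were held within narrow bounds: the 95% interval (1.96 standard errors each side) for training ran from -0.08 to 0.24 in males and -0.06 to 0.26 in females for Gm43672, and from -0.21 to 0.15 and -0.25 to 0.11 for Prr33. For Gm44616 it ran from -0.26 to 0.48 and from -0.62 to 0.16. These means over genotypes do not show changes that run in opposite directions in TG and nTG hearts. The lowest unadjusted p belonged to Gm9905, at -0.27 ± 0.09 for females over males in sedentary mice (adjusted p = 0.184, edgeR). The largest size was 0.33, for Gm44616 between the sexes in trained mice (-0.33 ± 0.20, adjusted p = 0.659).

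**Figure D4:**
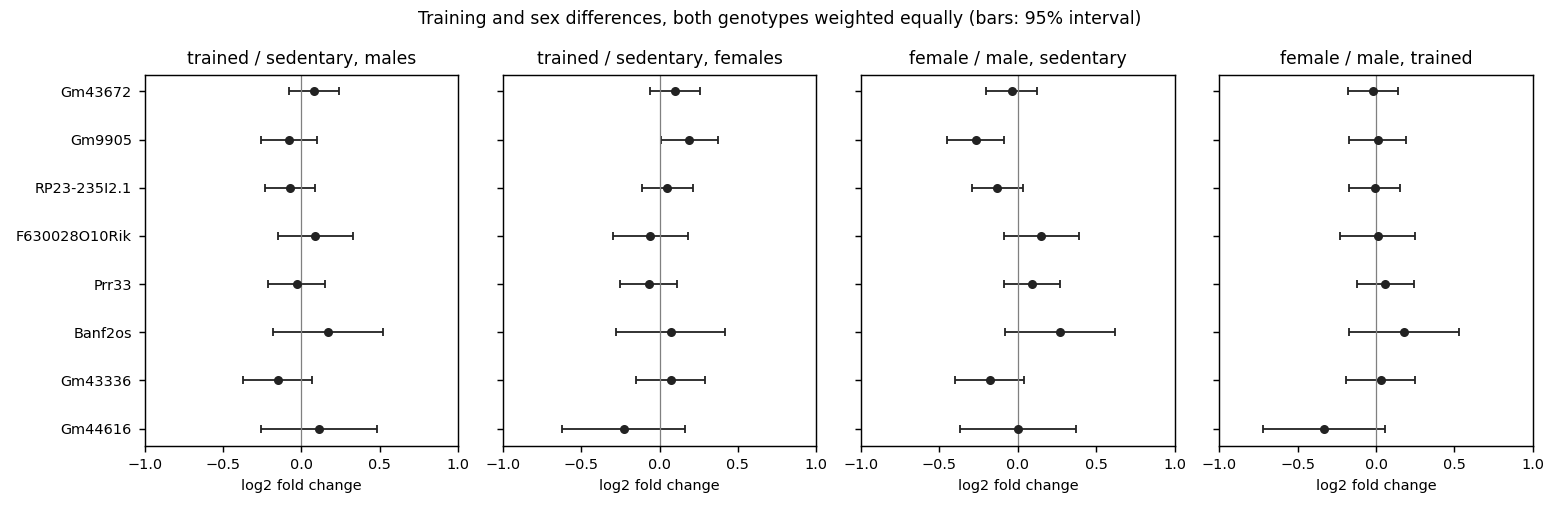
Log2 fold changes (x axis) for training in each sex and for sex in each training state, with both genotypes weighted equally, for the 8 lncRNAs. Bars are 95% intervals. All but 2 intervals include 0, the exceptions being Gm9905 for training in females (0.01 to 0.37) and for sex in sedentary mice (-0.45 to -0.09), and no test passed the adjusted threshold.

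Members were also compared with the genes beside or over them. Within groups Gm43672 varied with Tbl1xr1 (r = 0.47, permutation within groups, adjusted p = 0.00054, rho = 0.39, adjusted p = 0.0164, and r = 0.43 without the 2 hearts farthest from the median). Tbl1xr1 itself differed between genotypes by -0.07 to -0.01 in the 4 strata and was not called (adjusted p = 0.576 to 0.925). These values come from the same libraries, and no r of Gm43672 with other genes is given beside it. Mettl9, opposite Gm9905, was not called either (-0.13 to 0.05), and its relation to Gm9905 within groups was not called (r = 0.00, permutation, adjusted p = 0.994). Nor were those of Prr33 with Lsp1 (-0.18, adjusted p = 0.325) and Gm43336 with Coro1c (0.04, 0.868). Gm44616 was not called with Cyfip1 (0.29, 0.151) or with Nipa2, a nearby gene on its strand (-0.16, 0.441). Lsp1, opposite Prr33, was higher in TG hearts by 0.45 ± 0.09 in sedentary males (adjusted p = 0.000233, edgeR) and 0.36 ± 0.09 in trained females (0.00442), and by 0.22 ± 0.09 and 0.12 ± 0.09 in the others (0.0887 and 0.563). Coro1c was called only in sedentary males (0.16 ± 0.06, adjusted p = 0.0336) and Cyfip1 only in trained males (0.13 ± 0.04, adjusted p = 0.028), strata in which Gm43336 and Gm44616 were not called. Differences between strata were not tested. Banf2 and Tnnt3 were not in the gene table.

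Of the members, 7 are counted a second time in the gene table. That table comes from the same libraries, so it is a second count of the same RNA and not further evidence. For Gm43672, Gm9905 and Gm43336 the lncRNA table held a median of 0.87, 0.84 and 0.89 times the count in the gene table, and for F630028O10Rik 0.79, Banf2os 0.65, Gm44616 0.54 and Prr33 0.46 times. The genotype differences lay within 0.10 log2 units between the gene table and the lncRNA table on the gene scale for Gm43672, Gm9905, F630028O10Rik and Gm43336 and farther apart in at least 1 stratum for Prr33, Gm44616 and Banf2os, the 3 with the lowest ratios. Gm43672 had -0.52, -0.37, -0.50 and -0.57 in the gene table (males sedentary and trained, then females sedentary and trained), Gm9905 had -0.51, -0.51, -0.43 and -0.53, and Banf2os had -1.40, -0.84, -0.92 and -0.94. Strata that did not select a member hold 17 of these combinations, and 7 were called by edgeR, 1 of 4 in sedentary and 2 of 4 in trained males, 1 of 5 in sedentary and 3 of 4 in trained females, beside the 20.6%, 14%, 4.37% and 14.8% of all genes. The 7 were Banf2os in 3 strata, Gm9905 in both female strata (adjusted p = 0.0237 in sedentary females, where the lncRNA table gave no call), Gm43672 in trained males and F630028O10Rik in trained females. Prr33, with 700.5 counts per library in the gene table against 322, had the uncalled values given above in sedentary males and trained females, and -0.37 ± 0.09 in trained males, which selected it. Gm44616, with 25.5 counts against 13.5, stood at 0.290, 0.577 and 0.743 CPM in nTG and 0.192, 0.382 and 0.586 CPM in TG trained females in the gene table, where the groups overlapped. In the strata that selected them, F630028O10Rik had 0.74 and 0.64 in males and Gm43336 had 0.66 in trained females. RP23-235I2.1 was not in the gene table. Which reads the counts of the gene table include beyond those of the lncRNA table is not given in the sources used here.

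**Figure D5:**
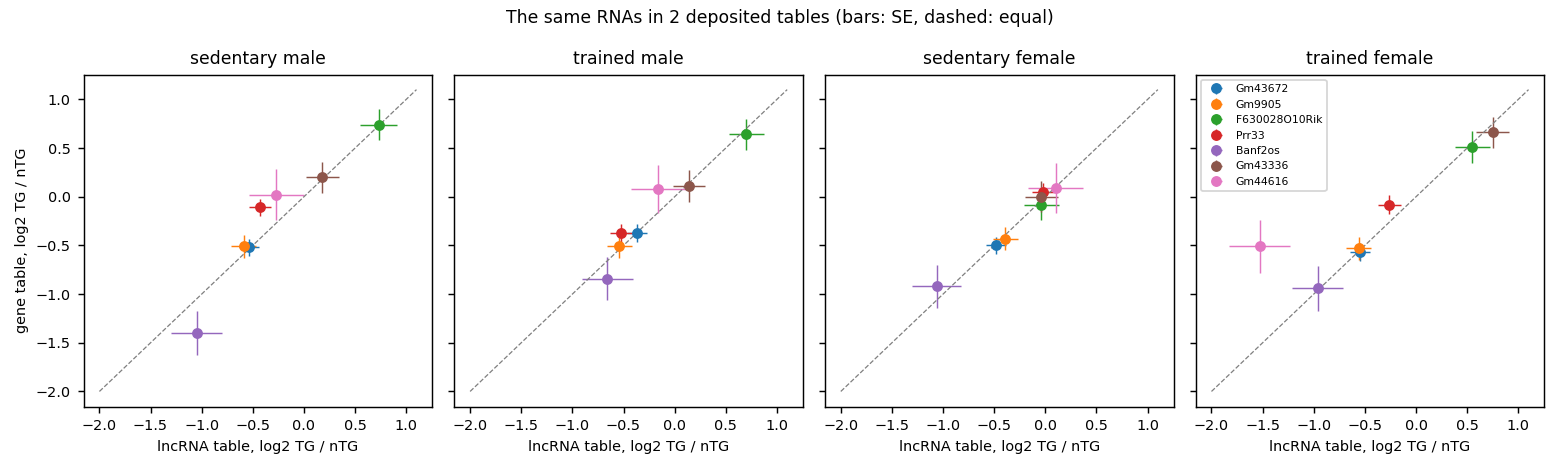
Log2 fold change of TG over nTG by the lncRNA table on the gene scale (x axis) and by the gene table with joined columns (y axis), for 7 lncRNAs in 4 strata. Bars are SE and the dashed line marks equal values. Most points lie near the line, while Gm44616 in trained females (-1.53 against -0.51) and Prr33 in sedentary males (-0.43 against -0.11) lie above it and Banf2os in sedentary males (-1.05 against -1.40) lies below it.

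The members varied among themselves in a limited way once group means were removed. Of 28 pairs, r ran from -0.21 to 0.50 with a median of 0.06, and by r the pair Gm9905 and Prr33 was called (r = 0.50, permutation within groups, adjusted p = 0.00364; rho = 0.56, adjusted p = 0.00112; r = 0.51 without 2 hearts). By rho, RP23-235I2.1 with Prr33 (0.41, permutation, adjusted p = 0.0253) and with Gm9905 (0.36, adjusted p = 0.0409) passed too. All members share a library and its total. On the gene scale the range was -0.34 to 0.27, Gm9905 and Prr33 had r = 0.27, and 13 of 28 pairs changed sign.

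Over all 64 hearts, group differences included, the transcripts most like each member were taken from 204 others with a mean of at least 50 counts, by Pearson's r of log2 CPM, as a description. The differences that selected the members feed these values: for Gm9905 and Gm43672, both selected as lower in TG sedentary males, r was 0.38 with group means removed (permutation, adjusted p = 0.0547) and 0.08 on the gene scale. Gm9905 was nearest to 6330403L08Rik (r = 0.75) and Gm43672 (0.73), and Prr33 to 6330403L08Rik (0.72) and C330006A16Rik (0.70). Gm43672 was next to Gm45012 (0.70) after Gm9905, and Banf2os to Gm45012 (0.68) and RP24-96N12.2 (0.60). RP23-235I2.1 was nearest to 0610012D04Rik (0.63) and Gm37352 (0.53). The remaining members had lower values. F630028O10Rik reached 0.37 with RP23-235I2.1 and 0.35 with Gm26782, Gm43336 0.41 with Gm37606 and 0.38 with Gm21955, and Gm44616 0.45 with Saxo1os and 0.43 with Gm43672. The negative r of F630028O10Rik were larger in size, at -0.56 with Atcayos and -0.47 with Gm10435, as were those of Gm43336, at -0.46 with RP24-96N12.2 and -0.45 with Gm17281. Gm44616 reached -0.44 with RP23-56A14.14. Among the other members the most negative r ran from -0.63, for Prr33 with Gm43022, to -0.44, for Banf2os with Gm42664.

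Known lncRNAs were looked up as well. Of 53 listed nuclear, imprinted, cardiac and host transcripts, 21 were in the lncRNA table and 12 were tested. Between genotypes 0 of 12 were called in any stratum (edgeR, lncRNA scale). Because 0.182% to 3.1% of all tested transcripts were called per stratum, a count of 0 among so few says little. The 12 include Mhrt, a cardiac antisense transcript of the myosin heavy chain locus, at -0.56 ± 0.28 in sedentary males (adjusted p = 0.392, edgeR). Malat1, an abundant nuclear transcript, was at -0.07 ± 0.08 there (adjusted p = 0.826). Jpx, an activator of Xist, was higher in females among trained mice (0.74 ± 0.15, adjusted p = 0.00265).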

How the data were processed

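Bulk RNA sequencing of 64 mouse hearts gave 2 deposited tables. The lncRNA table holds estimated counts (expected counts) that the authors deposited for 3787 transcripts, 45 of them with fractional values, and the gene table holds raw counts that the authors deposited for 16913 genes. Cutadapt 2.3, FastQC 0.11.8, MultiQC 1.7, STAR 2.7.8a, RSEM 1.3.3 and build GRCm38 are named, without roles, per the submitters' processing notes.

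Estimated counts were rounded and tested in edgeR 4.0.16 (R 4.3.3) by the quasi-likelihood F test with 8 group means, library size the lncRNA total without Gm42418, TMM factors, filterByExpr (1097 transcripts kept) and Benjamini-Hochberg adjustment at 0.05. A standard error is the size of the log2 fold change divided by the square root of F. The gene scale used the total and TMM factor of the joined gene column (1108 kept). Columns were joined by the highest r of log2 CPM (pseudocount 0.5) over 383 autosomal transcripts, members left out, and 64 of 64 pairs were each other's best. Gene totals were 34.6 to 67.1 M counts (M, megacounts). Neighbouring genes were tested in the gene table with the same model, an analysis added after the data were seen. Correlations used log2 CPM less group means and 100000 permutations within groups, two-sided. The smallest p these can give is 1e-05.

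The members and lists were chosen with earlier results of these data known. Named besides members are the next transcripts by p, the 2 most alike, neighbours and known lncRNAs. The alternatives were other scalings (among them the gene column of the same name), DESeq2 1.42.0, no filter, only the groups compared, a block for the replicate number and each library left out. Whether libraries of a group are separate animals rests on the label of a biological replicate. The test was checked on simulated data.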

Additional observations from a re-analysis of the deposited data

Results flagged for a closer look

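In 6 of 64 sets of values (8 lncRNAs in 8 groups) the highest heart stood apart from the rest of its group by Dixon's criterion at 95%, where chance gives about 3.2. Both Banf2os cases are replicate 6 of a trained male group: 705 CPM in an nTG heart, the others having 256 to 398, and 485 CPM in a TG heart, the others having 88.5 to 266. Gm9905 stood at 2351 CPM in TG trained male replicate 5, the others at 1410 to 1805. Gm43336 reached 1206 CPM in TG trained male replicate 4, the others 565 to 757. RP23-235I2.1 was at 5736 CPM in nTG sedentary female replicate 1, above 3308 to 4344 in the rest. Gm44616 was at 274 CPM in TG sedentary male replicate 1, above 85.5 to 159 in the rest. Their causes were not tested.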

How the results depend on the processing

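No call changed direction. Of 287 genotype values of members under other settings, 266 kept their side of the threshold, 17 lost a call and 4 gained one, in held-out strata F630028O10Rik in trained females (0.62 on plain gene totals, adjusted p = 0.0215) and Gm9905 in sedentary females (-0.64 with the same-named gene column, 0.0454); of 512 values with single libraries left out, 42 lost a call. All 272 training and sex values under other settings kept their side, and 1 of 1024 with a library left out gained a call (Gm9905 for sex in sedentary mice). Counts of transcripts called moved more. Between genotypes, plain joined gene totals gave 8 in sedentary males and 75 in trained females, against 19 and 34. The gene column of the same name, which contradicts many labels, gave 33 in sedentary and 1 in trained males, 6 in sedentary and 7 in trained females and 26 for sex in trained mice, against 19, 6, 2, 34 and 3. Plain lncRNA totals gave 18 in trained females. DESeq2 gave 29 in sedentary and 13 in trained males. Without a filter there were 10 in trained males, 4 for training in males (0 with it) and 11 for sex in trained mice, and with only the groups compared 20 in trained males. Leaving out single libraries gave 10 to 26 calls in sedentary and 4 to 10 in trained males, 1 to 3 in sedentary and 14 to 43 in trained females (14 without TG replicate 6), 0 to 1 for training in males, 8 to 17 for sex in sedentary and 2 to 5 in trained mice. The block for the replicate number gave 28, 7, 2 and 26 calls between genotypes and ended the call of Prr33 in trained females (-0.43, adjusted p = 0.0638) and no other call of a member, but the numbers do not pair samples (r of deviations from -0.114 to 0.067 over 29 same-numbered pairs); it could not be fitted for sex. DESeq2 gave no adjusted p for Gm44616 in trained females. Without TMM, Gm43672 in trained males was not called on plain gene totals (-0.31, adjusted p = 0.148, edgeR), nor was Prr33 in sedentary males (-0.37, 0.0707), and plain lncRNA totals ended the Prr33 calls in sedentary males (-0.38, 0.0588) and trained females (-0.36, 0.0804). Low counts limit Gm44616 and Banf2os most. The p-values weigh a group difference against a spread between hearts that is estimated over all groups and moderated over all tested transcripts.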
